A study of Mus musculus with 6 samples.

Results

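The 46 genes described here encode proteins of the kinetochore, the mitotic spindle and condensin, the machinery that separates chromosomes at cell division. They were chosen by gene symbol, and all 46 were found among the 16775 genes of the deposited tables. The symbols were sorted into 9 groups by the complex or step in which their products act. Each of the 46 reached a CPM of 1 (CPM, counts scaled to library size) in at least 1 library, as did 11898 genes in all, which form the background below. The member nearest to that limit was Cenpp, with at most 2.90 CPM.

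Bone marrow cells of C57BL/6 mice were cultured for 5 days in M-CSF (10 ng/ml), which makes bone marrow precursors divide and mature into macrophages. The bone-marrow-derived macrophages were then treated for 24 hours with IL4 plus 1 of 5 compounds (fatostatin, betulin, 25-HC, PF429424 or 1,10-Phen) or with IL4 alone. Each treatment has 1 RNA library, and every library received IL4, the classic inducer of alternatively activated macrophages. The labels name no genotype, animal number, age or dose, and they do not expand 25-HC or 1,10-Phen. The literature describes fatostatin and betulin as small molecules that keep SREBP transcription factors from maturing. With 1 library per treatment no difference has a replicate check and no test was run. Intervals are exact 95% intervals that cover counting error only.

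As background, a centromere is marked by nucleosomes that hold the histone CENP-A, on which the inner kinetochore assembles, and the NDC80 complex of the outer kinetochore grips spindle microtubules. The spindle checkpoint holds back anaphase until every kinetochore is attached, condensin compacts the chromosomes, and the anaphase-promoting complex then triggers separation. Transcripts of most of these genes peak late in the cell cycle in dividing cells, through promoters that hold CHR elements and CCAAT boxes, whereas resting cells keep them low. Macrophage precursors are known to divide in M-CSF culture.

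Promoters of 6 members are printed because they set genes that fell in the 1,10-Phen library (Mki67, Top2a, Ube2c and Cdc20) beside a pair whose levels moved little or the other way (Bub3 and Zwint). They are RefSeq promoter sequences on GRCm38.p6, at most 250 bases before the annotated start and outside the gene's annotated span, written 5′ to 3′ on the gene's strand. Capitals mark the CHR letters (TTTGAA or TTCAAA, or TTCGAA) and the CCAAT box (CCAAT or ATTGG). The windows are chr7:135716451-135716629 on the minus strand for Mki67, chr11:99024200-99024439 on the minus strand for Top2a, chr2:164769679-164769928 on the plus strand for Ube2c, chr4:118437344-118437593 on the minus strand for Cdc20, chr10:72654596-72654845 on the plus strand for Zwint and chr7:131560120-131560366 on the plus strand for Bub3.
Mki67: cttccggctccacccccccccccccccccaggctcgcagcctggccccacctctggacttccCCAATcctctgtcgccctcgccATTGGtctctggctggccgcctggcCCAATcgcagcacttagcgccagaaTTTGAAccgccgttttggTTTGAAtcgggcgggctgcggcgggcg
Top2a: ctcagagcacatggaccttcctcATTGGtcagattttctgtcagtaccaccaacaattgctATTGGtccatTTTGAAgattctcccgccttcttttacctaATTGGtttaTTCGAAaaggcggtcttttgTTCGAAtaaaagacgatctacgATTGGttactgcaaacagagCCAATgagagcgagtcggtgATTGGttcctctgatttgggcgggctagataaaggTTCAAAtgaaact
Ube2c: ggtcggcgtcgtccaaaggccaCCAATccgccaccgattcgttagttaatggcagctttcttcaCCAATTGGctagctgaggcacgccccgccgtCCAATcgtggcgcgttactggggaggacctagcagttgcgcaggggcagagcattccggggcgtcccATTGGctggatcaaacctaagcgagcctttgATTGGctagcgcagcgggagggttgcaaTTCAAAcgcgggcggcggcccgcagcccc
Cdc20: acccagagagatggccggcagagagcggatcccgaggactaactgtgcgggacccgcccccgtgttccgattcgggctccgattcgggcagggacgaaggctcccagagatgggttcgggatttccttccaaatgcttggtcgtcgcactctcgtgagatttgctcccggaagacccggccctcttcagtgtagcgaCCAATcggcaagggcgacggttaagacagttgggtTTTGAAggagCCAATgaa
Zwint: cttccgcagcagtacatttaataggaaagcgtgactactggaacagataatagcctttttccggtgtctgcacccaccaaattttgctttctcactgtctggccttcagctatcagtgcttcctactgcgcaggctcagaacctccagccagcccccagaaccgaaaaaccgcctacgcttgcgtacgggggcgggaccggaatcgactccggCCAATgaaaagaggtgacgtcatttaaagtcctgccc
Bub3: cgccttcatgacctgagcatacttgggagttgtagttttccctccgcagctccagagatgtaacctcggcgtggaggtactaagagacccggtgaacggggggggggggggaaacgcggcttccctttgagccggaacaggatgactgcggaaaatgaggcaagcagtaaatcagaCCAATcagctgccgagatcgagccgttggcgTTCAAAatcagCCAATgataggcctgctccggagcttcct

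The Top2a window held 4 CHR elements and 6 CCAAT boxes, the Mki67 window 2 and 3, the Ube2c window 1 and 6, and the Cdc20 window 1 and 2. The Zwint window held no CHR letters and 1 CCAAT box, and the Bub3 window held 1 CHR element and 2 CCAAT boxes. Both strands were searched, and overlapping matches, such as the CCAAT and ATTGG that share letters in the Ube2c window, were counted separately. Over all members, 40 of 46 had a RefSeq promoter entry, with 45 starts. For the counts over all members the full 250 bases before each start were searched, including the bases left out of the printed windows of Mki67, Top2a and Bub3. Aurkb, Incenp, Pbk, Smc4, Spc24 and Tpx2 were not matched. CHR letters stood in 18 of the 45 windows (40%), against 12.5% of 12227 windows of compared genes and 17.1% of all 32851 windows. A CCAAT box stood in 31 windows (68.9%), against 35.6% of the windows of compared genes and 33.8% of all windows. Both stood in 16 windows (35.6%), against 4.9% and 6.02%. The E2F motif (TTCCCGC or GCGGGAA) stood in 4 windows (8.89%), against 6.73% and 3.82%. These matches describe letters and do not show binding. Among the members, the median log2 ratio of the 1,10-Phen library to IL4 alone was -2.81 over the 17 genes with CHR letters (from -6.79 to -0.31). Over the 23 without it was -2.65 (from -6.46 to 0.76). For the CCAAT box it was -2.81 over the 27 genes with it (from -6.79 to 0.76) and -2.36 over the 13 without (from -5.57 to -0.87). The ranges overlapped in both splits, and the differences were not tested.

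The summed level of the 46 genes was lowest with 1,10-Phen of the 6 libraries, and lower with each compound than with IL4 alone. It was 2195 CPM with fatostatin (interval 2175 to 2215), 2535 CPM with betulin (2514 to 2557), 1825 CPM with 25-HC (1807 to 1843), 1459.8 CPM with PF429424 (1443 to 1476) and 624 CPM with 1,10-Phen (613 to 636), against 3031 CPM with IL4 alone (3008 to 3055). These sums are 72.4%, 83.6%, 60.2%, 48.2% and 20.6% of the sum with IL4 alone for fatostatin, betulin, 25-HC, PF429424 and 1,10-Phen. No 2 of the 6 intervals overlap, but the spread between cultures of 1 treatment is unknown. In bulk RNA such as this, fewer dividing cells and less of these transcripts per cell cannot be told apart.

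A gene is called lower or higher here when its log2 ratio to IL4 alone was at least 1 in size (2-fold) and its counting interval excluded no change. With 1,10-Phen 41 of the 46 members were called lower, against 11.6% of all genes compared. With PF429424 26 were called lower, against 5.9% of all genes, and with 25-HC 8 were, against 5.79%. No member was called lower with fatostatin, where 1.07% of all genes were, or with betulin, where 2.43% were. No member was called higher in any library, where 0.832% of all genes were with fatostatin, 1.78% with betulin, 3.18% with 25-HC, 2.34% with PF429424 and 7.7% with 1,10-Phen. All 5 comparisons share the IL4 library, so their calls are not independent of each other.

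The median log2 ratio of the members was -0.44 with fatostatin (order-statistic interval over members -0.51 to -0.35), -0.22 with betulin (-0.29 to -0.10), -0.71 with 25-HC (-0.82 to -0.58), -1.05 with PF429424 (-1.21 to -0.81) and -2.67 with 1,10-Phen (-3.49 to -1.74). The median over all compared genes lay between -0.0096 and 0.00094 in the 5 comparisons. Below 0 lay 46 members with fatostatin, 38 with betulin, 46 with 25-HC, 46 with PF429424 and 45 with 1,10-Phen. Of all genes compared, 49.97%, 51.82%, 50.46%, 49.88% and 50.29% lay below 0, in the same order. The whole counting interval lay below 0 for 40 members with fatostatin, 25 with betulin, 43 with 25-HC, 43 with PF429424 and 45 with 1,10-Phen. Set against the median of the 6 libraries instead of IL4 alone, the members' medians were 0.121 with fatostatin, 0.378 with betulin, -0.121 with 25-HC, -0.448 with PF429424 and -2.10 with 1,10-Phen. By the 2-fold limit alone, without a counting interval, 35 members were then lower with 1,10-Phen and 0 with the other 4 compounds. Scaled by library totals without TMM factors, the median of all genes lay at -0.254 with 1,10-Phen and -0.113 with PF429424, 75.2% of all calls with 1,10-Phen were lower (60.2% with TMM factors), and 42 and 29 members were called lower with these compounds.

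**Figure D1:**
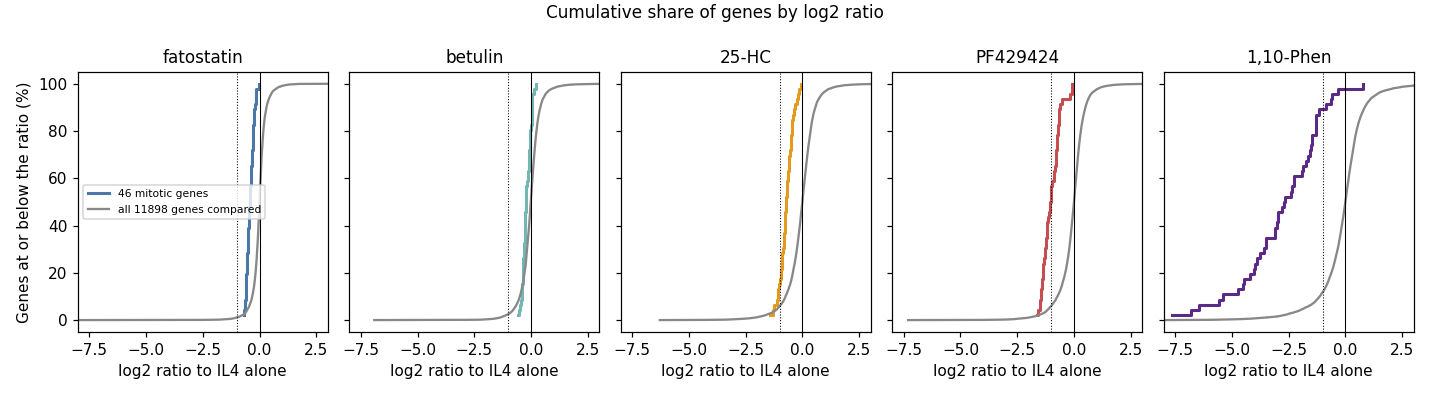
Cumulative share of genes (%, vertical axis) at or below each log2 ratio to IL4 alone (horizontal axis), in 1 panel per compound. Coloured steps are the 46 genes, grey lines all 11898 genes compared, and the dotted line marks 2-fold lower. The steps sit left of the grey line most clearly for 1,10-Phen, where the members' median is -2.67, and least for betulin, where it is -0.22.

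By rank over all 11898 genes in the 1,10-Phen comparison, 6 members stood among the 50 lowest ratios. They were Pbk (3rd), Mki67 (5th), Cenpf (9th), Nusap1 (19th), Top2a (23rd) and Ube2c (44th). Among the 500 lowest, which are 4.2% of the genes, stood 28 members with 1,10-Phen, 19 with PF429424, 10 with fatostatin, 3 with 25-HC and 0 with betulin.

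Both genes tied to the surface and topology of condensed chromosomes were called lower with PF429424 and with 1,10-Phen. Mki67 (chr7:135689784-135716450) encodes Ki-67, the surfactant-like coat of mitotic chromosomes that is widely used to mark dividing cells. It had 378 CPM with fatostatin, 448 with betulin, 322 with 25-HC, 222 with PF429424 and 5.10 with 1,10-Phen, against 575 with IL4 alone. Its log2 ratio was -1.37 with PF429424 (interval -1.42 to -1.32) and -6.79 with 1,10-Phen (-7.12 to -6.52), and 94 counts were left with 1,10-Phen, against 12269 with IL4 alone. Top2a (chr11:98992947-99024199), the topoisomerase that untangles sister chromatids, had 183, 218, 133, 113 and 6.79 CPM with fatostatin, betulin, 25-HC, PF429424 and 1,10-Phen, against 290.3 CPM with IL4 alone. It was called lower with 25-HC (-1.13), PF429424 (-1.36) and 1,10-Phen (-5.40). In both genes the 1,10-Phen library was the lowest, followed upwards by PF429424, 25-HC, fatostatin, betulin and IL4 alone.

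**Figure D2:**
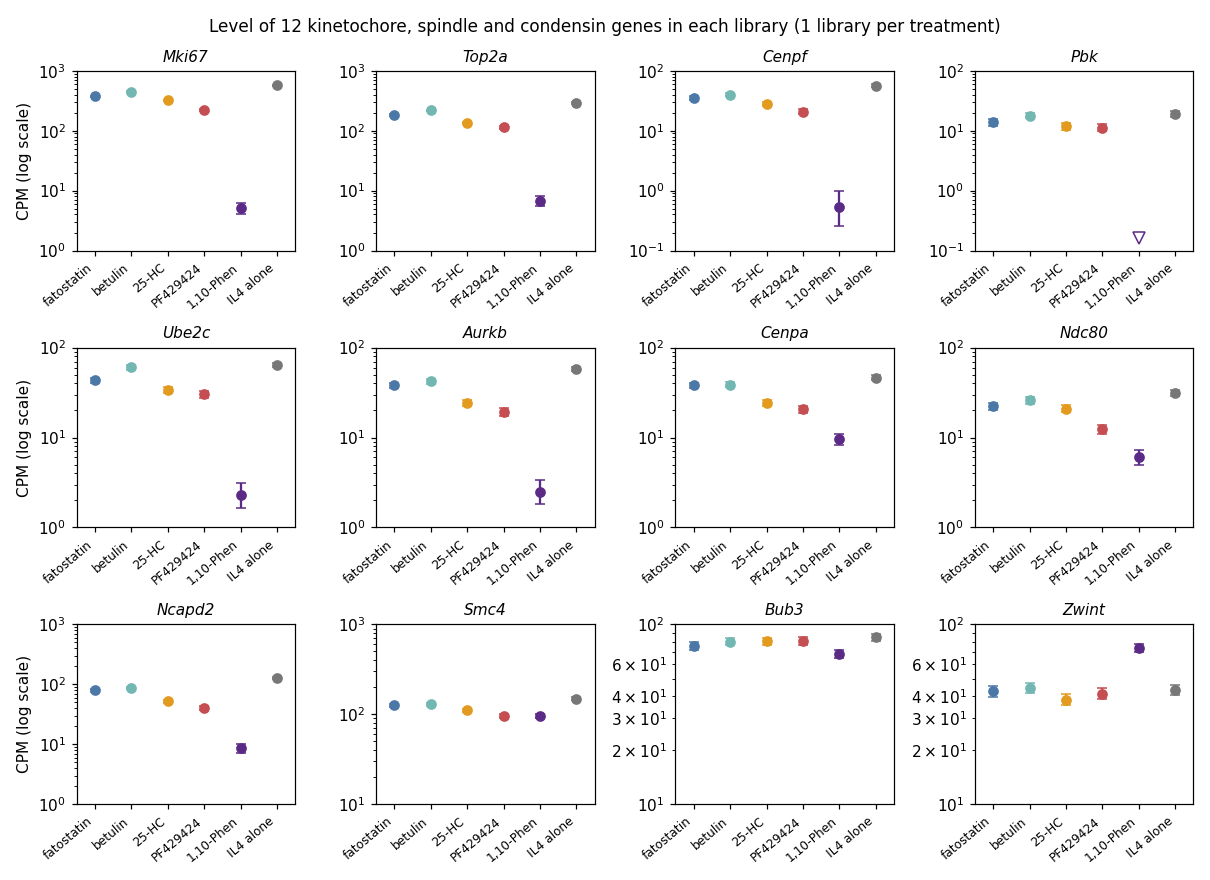
Level of 12 members in each of the 6 libraries (CPM, log axis), with exact 95% Poisson intervals as bars and 1 library per treatment. The open triangle is a library with 0 counts of Pbk, drawn at the level of 3 counts. Mki67 lies at 5.10 CPM with 1,10-Phen against 575 CPM with IL4 alone, while Zwint is at its highest with 1,10-Phen (73.7 CPM).

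Of the 11 genes of the inner kinetochore, 9 were called lower with 1,10-Phen, 5 with PF429424 and 2 with 25-HC. Cenpa, the centromeric histone itself, had 38.2, 38.8, 24.2, 20.5 and 9.56 CPM with fatostatin, betulin, 25-HC, PF429424 and 1,10-Phen, against 46.5 CPM with IL4 alone. Its log2 ratio was -1.18 with PF429424 and -2.27 with 1,10-Phen, and -0.94 with 25-HC, short of 2-fold. The other 10 belong to the constitutive centromere-associated network, which bridges CENP-A nucleosomes and the outer kinetochore, and they had lower counts than most members. Cenpm had the lowest ratio of them with 1,10-Phen. Its counts were 94, 100, 72, 48 and 3 with fatostatin, betulin, 25-HC, PF429424 and 1,10-Phen, against 125 with IL4 alone, a log2 ratio of -4.52 with 1,10-Phen whose interval ran from -7.46 to -3.59. Cenpp had the lowest ratio with PF429424, -1.49 (interval -2.38 to -0.83), on counts that did not exceed 62 in any library.

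Cenpt and Cenpl were the inner kinetochore genes with the smallest differences. Cenpt, whose product reaches out to recruit NDC80, had 11.5, 13.4, 11.4, 11.3 and 7.005 CPM with fatostatin, betulin, 25-HC, PF429424 and 1,10-Phen, against 12.9 CPM with IL4 alone. Its interval with PF429424 (-0.45 to 0.06) included no change, and its ratio with 1,10-Phen was -0.87. Cenpl was at -0.60 with 1,10-Phen and -0.52 with PF429424. Cenpw, the partner of Cenpt in a histone-like pair, followed another order: it had 3.85 CPM with fatostatin, 6.53 with betulin, 2.59 with 25-HC, 3.12 with PF429424 and 2.17 with 1,10-Phen, against 5.53 with IL4 alone. With 25-HC it was called lower (-1.07), while with PF429424 (-0.81) it was not. The ratios of Cenph, Cenpi, Cenpk, Cenpn, Cenpp and Cenpq with 1,10-Phen ranged from -3.03 to -1.48, and all 6 were called lower there.

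All 4 genes of the NDC80 complex, the microtubule-binding rod of the kinetochore, were called lower with 1,10-Phen, with a median log2 ratio of -3.29. Ndc80 had 22.3, 25.9, 20.9, 12.3 and 6.08 CPM with fatostatin, betulin, 25-HC, PF429424 and 1,10-Phen, against 31.6 CPM with IL4 alone. Nuf2, its partner in the microtubule-binding head, had 25.6, 31.1, 14.5, 13.8 and 2.39 CPM with fatostatin, betulin, 25-HC, PF429424 and 1,10-Phen, against 39.5 CPM with IL4 alone. Nuf2 was called lower with 25-HC (-1.44), where Ndc80 was at -0.59, and both were called lower with PF429424 (-1.51 for Nuf2 and -1.35 for Ndc80). With 1,10-Phen Nuf2 was at -3.995 and Ndc80 at -2.36. Spc24 and Spc25, the pair that anchors the rod to the inner kinetochore, were at -3.49 and -3.09 with 1,10-Phen, and neither was called with PF429424 (-0.76 for Spc24 and -0.63 for Spc25).

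The 3 genes of the outer kinetochore and its fibrous corona spanned the widest range of any group with 1,10-Phen. Cenpf, a large corona protein that binds microtubules and dynein regulators, had 35.6, 40.1, 28.1, 20.8 and 0.543 CPM with fatostatin, betulin, 25-HC, PF429424 and 1,10-Phen, against 56.3 CPM with IL4 alone. Its ratio with 1,10-Phen was -6.46 (interval -7.76 to -5.81, 10 counts against 1202), and its ratio with 25-HC, -1.002, sat just at the 2-fold limit. Cenpe, the kinesin that carries chromosomes to the spindle equator, was at -0.90 with PF429424 and was called lower with 1,10-Phen (-2.65).

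Zwint (chr10:72654846-72674964), which links the outer kinetochore to the RZZ complex of the checkpoint, was the 1 member whose level was above that with IL4 alone in the 1,10-Phen library. It had 42.4 CPM with fatostatin, 44.2 with betulin, 38.2 with 25-HC, 41.2 with PF429424 and 73.7 with 1,10-Phen, against 43.4 with IL4 alone. In counts this was 902, 947, 842, 846 and 1358 with fatostatin, betulin, 25-HC, PF429424 and 1,10-Phen, against 927 with IL4 alone. The log2 ratio with 1,10-Phen was 0.76 (interval 0.64 to 0.89), beyond counting error but short of 2-fold, so it was not called higher, and 0.51 when scaled by library totals. The other 4 compound libraries lay between 38.2 and 44.2 CPM, close to IL4 alone, although the ratio with 25-HC (-0.18) was lower beyond counting error.

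Of the 5 spindle checkpoint genes 4 were called lower with 1,10-Phen and 3 with PF429424. Ttk, the kinase Mps1 that starts checkpoint signalling at unattached kinetochores, was at -1.09 with PF429424 and -3.58 with 1,10-Phen. Bub1b, which encodes the checkpoint inhibitor BubR1, had 47.0, 52.8, 34.1, 24.5 and 9.12 CPM with fatostatin, betulin, 25-HC, PF429424 and 1,10-Phen, against 64.5 CPM with IL4 alone. It had the lowest ratio of the group with PF429424 (-1.39). The checkpoint kinase gene Bub1 was at -1.02 with PF429424 and -2.40 with 1,10-Phen.

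Mad2l1 encodes Mad2, the protein that captures the anaphase activator Cdc20. It had 45.8, 54.4, 33.6, 35.2 and 22.8 CPM with fatostatin, betulin, 25-HC, PF429424 and 1,10-Phen, against 56.2 CPM with IL4 alone, and was called lower with 1,10-Phen (-1.30) and not with PF429424 (-0.67). Bub3, the adaptor that carries BubR1 and Bub1 to kinetochores, had the ratios nearest to 0 of all members with PF429424 and with 1,10-Phen. Its level was 76.0, 80.2, 80.5, 81.0 and 68.6 CPM with fatostatin, betulin, 25-HC, PF429424 and 1,10-Phen, against 84.9 CPM with IL4 alone. The Bub3 ratio with 1,10-Phen was -0.31 (interval -0.41 to -0.20) and with PF429424 -0.07 (-0.16 to 0.03).

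The chromosomal passenger complex corrects faulty attachments, and its 4 genes split into a steep and a shallow pair. Aurkb, its kinase, had 37.9, 42.1, 24.2, 19.3 and 2.50 CPM with fatostatin, betulin, 25-HC, PF429424 and 1,10-Phen, against 57.6 CPM with IL4 alone. Birc5, which encodes the targeting subunit survivin, had 39.3, 45.5, 24.8, 24.4 and 2.66 CPM with fatostatin, betulin, 25-HC, PF429424 and 1,10-Phen, against 51.4 CPM with IL4 alone. Both were called lower with 25-HC (-1.25 for Aurkb and -1.05 for Birc5), with PF429424 (-1.57 and -1.07) and with 1,10-Phen (-4.47 and -4.22). Incenp, the scaffold, and Cdca8, which encodes borealin, were called lower with 1,10-Phen, at -1.64 and -1.28. With PF429424 Incenp was at -0.71, and Cdca8 (-0.97) lay just short of 2-fold.

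All 7 genes of mitotic kinases and spindle proteins were called lower with 1,10-Phen (median -3.51), 4 of 7 with PF429424 and 0 with 25-HC. Plk1, the polo-like kinase that acts from mitotic entry to exit, had 35.5, 45.0, 29.9, 19.2 and 4.51 CPM with fatostatin, betulin, 25-HC, PF429424 and 1,10-Phen, against 52.4 CPM with IL4 alone. Aurka, the kinase of spindle poles, had 30.0, 39.3, 27.9, 19.4 and 7.44 CPM with fatostatin, betulin, 25-HC, PF429424 and 1,10-Phen, against 36.1 CPM with IL4 alone. Its betulin ratio was 0.12 (interval -0.02 to 0.27). Tpx2, the activator of Aurora A on spindle microtubules, had the smallest differences of the group, at -0.71 with PF429424 and -1.86 with 1,10-Phen.

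Pbk (chr14:65805911-65817822), a protein kinase active in mitosis, had the lowest fitted ratio of the 46 members with 1,10-Phen and had no count in that library. Its counts were 292, 381, 261, 231 and 0 with fatostatin, betulin, 25-HC, PF429424 and 1,10-Phen, against 406 with IL4 alone. Taking 3 counts as the floor of the 1,10-Phen library, Pbk was at least 117-fold lower there than with IL4 alone. With PF429424 its ratio was -0.75, not called. Among the microtubule-associated genes, the bundling protein genes Nusap1 and Prc1 were at -5.57 and -2.99 with 1,10-Phen and at -1.43 and -1.21 with PF429424. Anln, which encodes the cleavage furrow scaffold anillin, was at -4.02 with 1,10-Phen and -1.15 with PF429424.

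Of the 9 groups, condensin had the median nearest to 0 with 1,10-Phen (-1.49), with 6 of 7 genes called lower there, 4 with PF429424 and 1 with 25-HC. Smc2 and Smc4, the ATPase core shared by both condensins, had the ratios nearest to 0 of the 7 with 1,10-Phen. Smc4 (chr3:69004738-69034623) had 126, 129, 112, 95.6 and 95.8 CPM with fatostatin, betulin, 25-HC, PF429424 and 1,10-Phen, against 149 CPM with IL4 alone, and 1,10-Phen and PF429424 did not differ beyond counting error (log2 ratio 0.003, interval -0.09 to 0.10). Smc2 had 80.0, 88.7, 73.5, 60.5 and 47.4 CPM with fatostatin, betulin, 25-HC, PF429424 and 1,10-Phen, against 105 CPM with IL4 alone, and was called lower with 1,10-Phen (-1.15) but not with PF429424 (-0.80).

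All 3 subunits particular to condensin I (Ncapd2, Ncapg and Ncaph) were called lower with PF429424 and with 1,10-Phen. Ncapd2, a HEAT-repeat subunit, stood apart from the rest of condensin: it had 79.7, 87.0, 52.5, 40.6 and 8.53 CPM with fatostatin, betulin, 25-HC, PF429424 and 1,10-Phen, against 127 CPM with IL4 alone. Its ratios of -0.68 with fatostatin, -1.65 with PF429424 and -3.89 with 1,10-Phen were the lowest in condensin, and those with fatostatin and PF429424 were the lowest of all 46 members. Ncapg and Ncaph were at -1.74 and -1.90 with 1,10-Phen. Of the condensin II subunits, Ncapd3 had 37.6, 36.7, 32.9, 27.7 and 16.3 CPM with fatostatin, betulin, 25-HC, PF429424 and 1,10-Phen, against 45.9 CPM with IL4 alone, and was called lower with 1,10-Phen (-1.49) but not with PF429424 (-0.73). Ncapg2 was called lower with both PF429424 (-1.21) and 1,10-Phen (-1.28).

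The 3 genes of anaphase onset were called lower with PF429424 and with 1,10-Phen, and none was with 25-HC. Cdc20, the activator of the anaphase-promoting complex, had 24.6, 34.5, 22.6, 15.3 and 2.55 CPM with fatostatin, betulin, 25-HC, PF429424 and 1,10-Phen, against 35.9 CPM with IL4 alone. Ube2c, the ubiquitin-conjugating enzyme of that complex, had 43.5, 60.1, 33.9, 30.2 and 2.28 CPM with fatostatin, betulin, 25-HC, PF429424 and 1,10-Phen, against 63.5 CPM with IL4 alone. Espl1, which encodes separase, the protease that opens cohesin rings, had 28.3, 32.5, 25.0, 17.5 and 4.83 CPM with fatostatin, betulin, 25-HC, PF429424 and 1,10-Phen, against 42.9 CPM with IL4 alone. Their ratios with 1,10-Phen were -3.76 for Cdc20, -4.74 for Ube2c and -3.13 for Espl1.

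**Figure D3:**
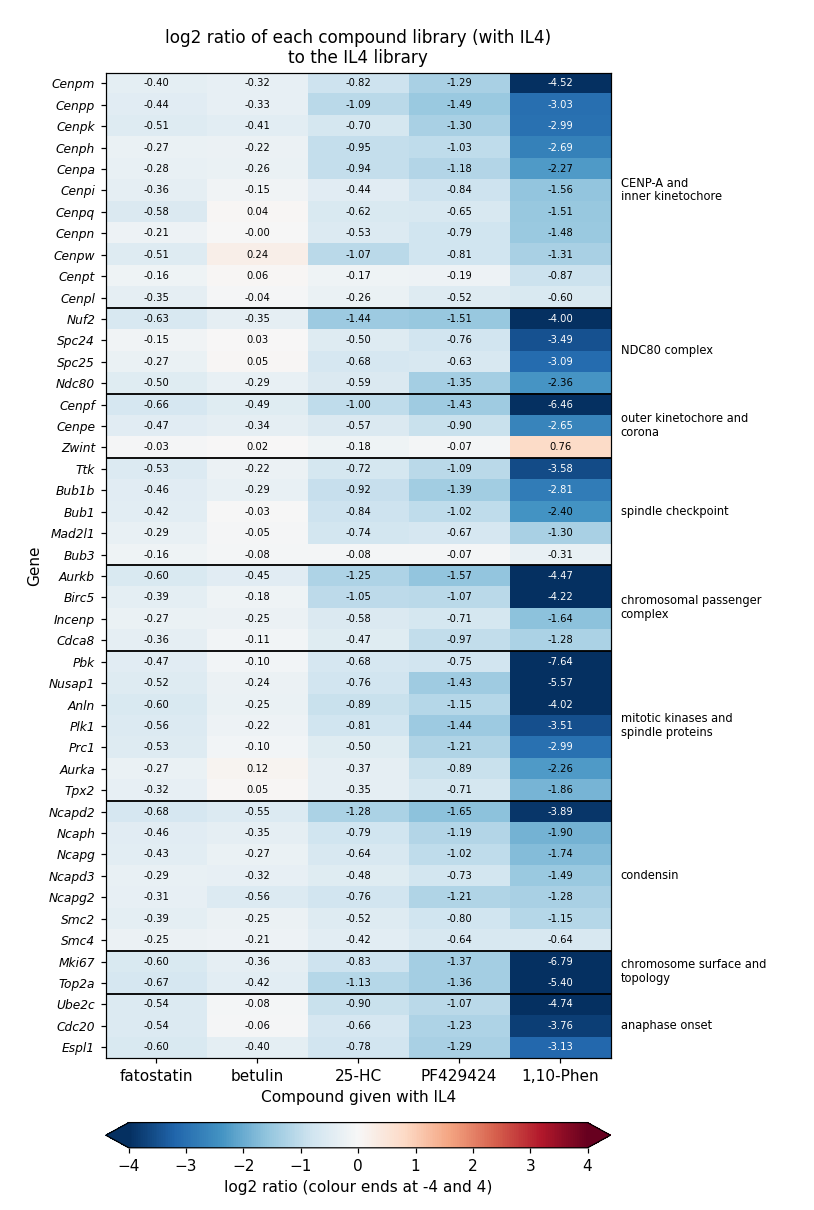
log2 ratio of each compound library to IL4 alone for the 46 genes, grouped by complex and ordered within a group by the 1,10-Phen column (blue lower, red higher, numbers in the cells, colour ends at -4 and 4). Every cell of the 1,10-Phen column is below 0 except Zwint at 0.76, and the betulin column holds the palest cells.

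**Figure D4:**
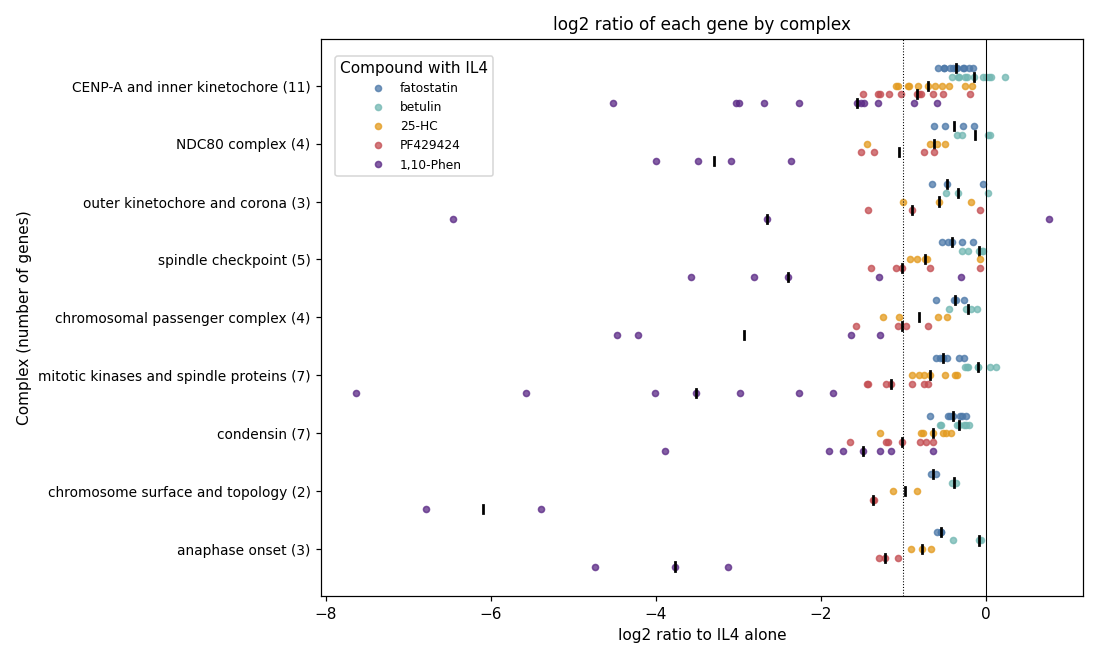
log2 ratio to IL4 alone (horizontal axis) of each gene (points) by complex (vertical axis, number of genes in brackets), with a black bar at each group's median and a dotted line at 2-fold lower. Points of 1,10-Phen spread from -7.64 to 0.76, and condensin, with a median of -1.49, sits nearer to 0 than the kinases and spindle proteins, with a median of -3.51.

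The order of the compounds was shared by most members. In 38 of the 46 genes the level followed the order 1,10-Phen below PF429424 below 25-HC below fatostatin, against 6.29% of all genes compared. That order, which leaves out betulin, is the order of the members' own medians, so the members' share is partly fixed by the choice of order. The 8 exceptions were Bub3, Cenpl, Cenpw, Mad2l1, Prc1, Smc4, Spc25 and Zwint. The 1,10-Phen library had the lowest level of the 6 in 44 members, against 33% of all genes, with Smc4 and Zwint as the exceptions. In 44 members the level with betulin was above that with fatostatin, except in Ncapd3 and Ncapg2, and 50% of all genes showed that order. The counting interval of betulin over fatostatin lay above 0 for 31 members and below 0 for 1.

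Compounds were also set against each other without the IL4 library, in 4 pairs at the same time of treatment. The doses are not given, so these ratios do not compare the compounds at matched doses. In 1,10-Phen over PF429424, 29 members were called lower (9.05% of all genes were) and none higher (7.98% were), with a median log2 ratio of -1.48. All 7 kinase and spindle genes and all 4 NDC80 genes were among the 29, but of the 7 condensin genes only Ncapd2 was, at -2.24. In PF429424 over 25-HC the median was -0.30 and no member was called lower (1.92% of all genes were) or higher (1.74% were). Ndc80 had the lowest ratio of that pair, -0.76 (interval -0.996 to -0.54), and Cenpw the highest, 0.26 (-0.27 to 0.81). In 25-HC over betulin the median was -0.51, and Cenpw (-1.30) and Nuf2 (-1.10) were called lower (2.4% of all genes were) and none higher (1.22% were). In betulin over fatostatin the median was 0.21, with no member called higher (1.17% of all genes were) or lower (1.89% were). The largest difference of that pair was that of Cenpw, 0.75 (interval 0.36 to 1.17).

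The make-up of the group's transcripts differed between libraries as well. Zwint, Bub3 and Smc4 together took 38.2% of the counts of the 46 genes with 1,10-Phen, against 9.16% with IL4 alone. Mki67 took 0.818% with 1,10-Phen, against 19.0% with IL4 alone. Their ratios with 1,10-Phen were among the highest (Zwint, Bub3 and Smc4) or lowest (Mki67) of the members. The direction of these shares therefore follows from the choice of genes. On the FPKM scale, which is per transcript length and so allows levels of different genes to be compared, the highest members with 1,10-Phen were Zwint (34.3 FPKM), Bub3 (29.4) and Smc4 (20.6). With IL4 alone they were Ube2c (73.8 FPKM), Mki67 (64.1) and Top2a (58.3). The median FPKM of the 46 genes was 12.8 with fatostatin, 14.9 with betulin, 9.75 with 25-HC, 6.83 with PF429424 and 2.02 with 1,10-Phen, against 19.2 with IL4 alone.

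Further genes of division were taken from 6 lists of 123 genes in all, and every one of them was measured. None was called in any list with fatostatin (1.07% of all genes were called lower and 0.832% higher) or betulin (2.43% and 1.78%). Of 27 further kinetochore genes 15 were called lower with 1,10-Phen (55.6%, against 11.6% of all genes). With PF429424 7 were (25.9%, against 5.9%), and with 25-HC 1 was (3.70%, below the 5.79% of all genes). Knl1, the platform on which checkpoint proteins gather, was at -3.53 with 1,10-Phen and -1.27 with PF429424. Kntc1, which encodes a subunit of the RZZ complex, was at -5.12 with 1,10-Phen and -1.01 with PF429424. Ska1 and Ska2, which hold kinetochores on shrinking microtubule ends, were at -5.04 and -3.65 with 1,10-Phen, Ska1 on 3 counts (interval -7.98 to -4.12).

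Of 20 genes of cytokinesis and the centrosome 12 were called lower with 1,10-Phen (60%, against 11.6% of all genes). With PF429424 9 were (45%, against 5.9%), and with 25-HC 2 were (10%, against 5.79%). Aspm, a spindle pole protein, had 26.9, 30.3, 22.0, 14.97 and 0.706 CPM with fatostatin, betulin, 25-HC, PF429424 and 1,10-Phen, against 44.6 CPM with IL4 alone. Racgap1, a subunit of centralspindlin, was at -3.14 with 1,10-Phen and -1.18 with PF429424. Cohesin and the anaphase-promoting complex, whose core subunits also serve cells outside mitosis, had shares of calls with 1,10-Phen near the 11.6% of all genes (14.3% and 12.5%). Of 14 cohesin genes 2 were called lower with 1,10-Phen, Esco2 at -5.32 and Cdca5 at -2.89. Both act when cohesion is set up in dividing cells, and the reason for their calls was not tested. With PF429424 2 were called lower (14.3%, against 5.9% of all genes), and with 25-HC 1 was (7.14%, against 5.79%). The ring subunits Smc1a, Smc3 and Rad21 were at -0.93, -0.57 and -0.18 with 1,10-Phen, and Stag2 was at 0.32. Pttg1 had the highest ratio of the 14 with 1,10-Phen, 0.46 (interval 0.20 to 0.73), and with PF429424, 0.30 (0.04 to 0.57). With PF429424 8 intervals lay below 0 and 2 above. Of the 14 cohesin genes 8 had intervals above 0 and 6 below 0 with 1,10-Phen, and the median was 0.15, but -0.098 when scaled by library totals and -0.042 on log2(FPKM + 1). Of 16 genes of the anaphase-promoting complex and its regulators 2 were called lower with 1,10-Phen. With PF429424 1 was (6.25%, near the 5.9% of all genes), and with 25-HC 0 were, against 5.79%. Its inhibitor Fbxo5 was at -3.46 with 1,10-Phen and -1.17 with PF429424, and the subunit Anapc15 at -1.15 with 1,10-Phen.

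A list of 22 genes held the DREAM complex, E2F factors and FOXM1, the regulators known to act on CHR and E2F promoter elements. It also held Nfya, Nfyb and Nfyc. With 1,10-Phen 7 were called lower (31.8%, against 11.6% of all genes). Called higher there was 1, Lin54, at 1.06 (interval 0.93 to 1.195), against 7.7% of all genes. With PF429424 5 were called lower (22.7%, against 5.9%), and with 25-HC 1 was (4.55%, against 5.79%). With 1,10-Phen 13 intervals lay below 0 and 4 above. Foxm1, an activator of late cell cycle genes, had 52.0, 57.5, 33.5, 31.3 and 2.23 CPM with fatostatin, betulin, 25-HC, PF429424 and 1,10-Phen, against 70.2 CPM with IL4 alone. It was called lower with 25-HC (-1.06), PF429424 (-1.16) and 1,10-Phen (-4.92). The atypical repressors E2f7 and E2f8 were at -6.60 and -4.03 with 1,10-Phen, E2f7 on 2 counts (interval -10.6 to -5.65). The activator E2f2 was at -3.81 there, while E2f1 and E2f3 were at 0.11 and -0.51 and were not called.

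Of the 24 genes of the DNA replication list 22 were called lower with 1,10-Phen, against 11.6% of all genes, with a median of -3.36. With PF429424 1 was called lower (4.17%, close to the 5.9% of all genes), yet 23 of the 24 intervals lay below 0 and the median was -0.61. With 25-HC 1 was called lower (4.17%, against 5.79% of all genes), and the median was -0.48. Rrm2, a subunit of ribonucleotide reductase, had 59.4, 72.05, 56.2, 46.3 and 1.47 CPM with fatostatin, betulin, 25-HC, PF429424 and 1,10-Phen, against 85.01 CPM with IL4 alone. Mcm5, a subunit of the replicative helicase, was at -4.79 with 1,10-Phen and -0.74 with PF429424. Pcna had the highest ratio of the 24 with 1,10-Phen, -0.14. Cdt1 had the highest with fatostatin, betulin, 25-HC and PF429424, at 0.22, 0.45, 0.62 and 0.34. Below 0 with these compounds lay 23, 17, 23 and 23 of the 24, against 49.97%, 51.82%, 50.46% and 49.88% of all genes. Whole intervals lay below 0 for 20, 9, 22 and 23 of the 24. With PF429424 26 of the 46 mitotic genes (56.5%) were called lower, with a median of -1.05, and the difference between the lists was not tested.

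**Figure D5:**
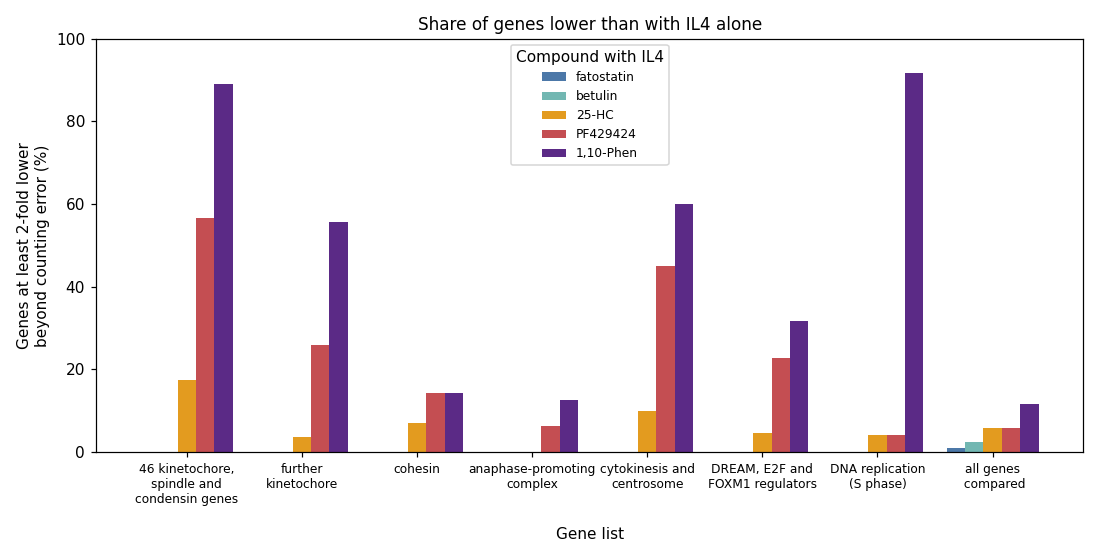
Share of genes at least 2-fold lower than with IL4 alone beyond counting error (%, vertical axis) in the 46 genes, 6 further lists and all genes compared (horizontal axis), with 1 bar per compound. With 1,10-Phen the 46 genes and the DNA replication list are both near the top, while with PF429424 the replication list has 1 gene of 24.

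The labelled cell type and other cells were checked by marker lists. Sums cover every listed marker in the tables, and calls the markers that passed the CPM limit. Of all genes compared, 1.07%, 2.43%, 5.79%, 5.9% and 11.6% were called lower with fatostatin, betulin, 25-HC, PF429424 and 1,10-Phen. Called higher were 0.832%, 1.78%, 3.18%, 2.34% and 7.7%, in the same order. These shares are the background for all marker calls below. All 8 macrophage markers were measured, with summed levels of 11324, 8714, 7101, 10390.9 and 7776 CPM with fatostatin, betulin, 25-HC, PF429424 and 1,10-Phen, against 10694 CPM with IL4 alone. Lyz2 made up 4547 CPM of the sum with IL4 alone. Single macrophage markers were called: Adgre1 (-1.002), Csf1r (-1.02) and Mertk (-1.12) lower with PF429424, Mertk (-2.81) and Fcgr1 (-1.86) lower with 1,10-Phen, and with 25-HC Adgre1 (-1.27) and Mertk (-1.08) lower and Cd14 (1.47) higher. No macrophage marker was called with fatostatin or betulin.

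Of 13 neutrophil markers 12 were measured, and 8 (66.7%) were called lower with PF429424 (median -1.72) and 8 (66.7%) with 1,10-Phen (median -2.65). With fatostatin 1 was called lower, with betulin 1 lower and 1 higher, and with 25-HC 1 lower and 3 higher, and the medians were 0.27, 0.39 and 0.42. The sum was 475, 814, 825, 463 and 926 CPM with fatostatin, betulin, 25-HC, PF429424 and 1,10-Phen, against 829.7 CPM with IL4 alone. Within it, Mmp8 had 96.6 CPM with fatostatin and 843 CPM with 1,10-Phen, against 530.5 CPM with IL4 alone. With fatostatin 8 of the 12 intervals lay above 0 although the sum was lower.

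Of 9 myeloid progenitor markers, which belong to cells that can divide, 6 were measured, and Mpo and Elane of these are also in the neutrophil list. The sum was 36.1, 45.6, 50.8, 31.9 and 7.93 CPM with fatostatin, betulin, 25-HC, PF429424 and 1,10-Phen, against 46.9 CPM with IL4 alone, and 5 of the 6 were called lower with 1,10-Phen. Cd34 was called lower with fatostatin (-1.47), PF429424 (-1.55) and 1,10-Phen (-3.84), and Prtn3 with PF429424 (-1.27) and 1,10-Phen (-1.94). Gata2 was called higher with 25-HC (2.24) and PF429424 (1.69), at 20.7 CPM with 25-HC and 14.1 CPM with PF429424, against 4.31 CPM with IL4 alone. Of 8 stromal markers 5 were measured, with sums of 39.7 to 114 CPM over the 6 libraries. Col1a1 and Col1a2 were called lower with betulin (-1.63 and -1.55) and PF429424 (-1.53 and -1.19), and Acta2 with 25-HC (-1.22). No stromal marker was called with fatostatin or 1,10-Phen. B cell and T cell markers summed to at most 5.01 and 9.07 CPM in any library and erythroid markers to at most 0.560 CPM. Of these, Cd79b was called lower with betulin (-1.45), 25-HC (-2.12), PF429424 (-2.23) and 1,10-Phen (-2.45), and Cd4 with 1,10-Phen (-1.27). Of the 6 T cell markers 5 were found in the tables. No marker found was at 0 in all 6 libraries, and the part that these cells play in the results was not tested.

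Library totals lay between 20181396 and 21169667 counts, so depth differed by little, and 3 counts, the floor used for a gene at 0, correspond to 0.136 to 0.163 CPM. Several members have limits of their own. The spans of 18 of the 46 genes overlap another RefSeq gene, Top2a, Ncapd2, Smc4 and Cdc20 among them. No source used here gives the strand setting of the counting, so reads of overlapping genes may be shared. Gene totals of 25 members also take in transcripts with identifiers from outside RefSeq.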

How the data were processed

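Total RNA (1 ug) of 6 macrophage cultures was sequenced. The deposited values of each gene are, per the file headers, an estimated count that the authors left unscaled between libraries, and between 30.5% and 32.0% of these are not whole. The FPKM values, also deposited, are scaled by the authors for length of transcript and depth of library. HISAT2, Bowtie2, DESeq2 and RSEM 1.2.12 appear in the submitters' processing notes, with no step named.

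Counts were rounded to whole numbers and scaled with TMM factors over the 11898 genes that reached a CPM of 1 in at least 1 library (edgeR 4.0.16, R 4.3.3). log2 ratios use a prior count of 2, with exact Clopper-Pearson 95% intervals (SciPy 1.17.1, Python 3.11.15). Medians have order-statistic intervals over genes. The calling procedure was run on simulated counts with known changes and counting error only. These held no spread between cultures and no TMM step, so that run cannot check either. The alternatives tried were size factors from DESeq2 1.42.0, scaling by library totals, leaving out the expression filter, a stricter minimum CPM of 5, a prior count of 0.5 or of 10, log2(FPKM + 1), the median of the 6 libraries as reference and, added after the data were seen, TMM factors over all genes. Gene positions and promoters are those of RefSeq on GRCm38.

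The 46 genes, the further lists and the markers were chosen with earlier results of these data known. In each complex the text describes the members with the lowest and highest ratios with PF429424 and 1,10-Phen and the best known ones, and of each further list some of the 4 genes with the largest ratios that reached a CPM of 5. Cenpw, the markers named singly and the briefer mentions of other members were chosen after their values were seen. So were the genes of the further lists named outside that rule, such as Lin54, Pttg1 and Pcna.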

Additional observations from a re-analysis of the deposited data

How the results depend on the processing

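No called ratio of a member changed sign under any alternative run. With the median of the 6 libraries as reference and on log2(FPKM + 1), calls used the 2-fold limit alone, without a counting interval. When the median of the 6 libraries replaced IL4 alone, the members' median was 0.121 with fatostatin, 0.378 with betulin, -0.121 with 25-HC and -0.448 with PF429424, and the members called lower were 0 with 25-HC and 0 with PF429424, because the 5 compound libraries then form most of the standard. With 1,10-Phen the count was 35 and the median -2.10. Over all alternatives the members called lower numbered 35 to 42 with 1,10-Phen, 0 to 29 with PF429424 and 0 to 8 with 25-HC, and 27 to 30 in 1,10-Phen over PF429424. With 25-HC 5 members were called lower at a prior count of 10 and 5 on log2(FPKM + 1), where 1 was in 25-HC over betulin. With the median as reference, list medians with fatostatin, betulin, 25-HC and PF429424 were 0.074, 0.212, -0.077 and -0.334 for further kinetochore genes, 0.081, 0.190, -0.098 and -0.437 for cytokinesis and 0.106, 0.259, -0.113 and -0.284 for DNA replication. They were -0.007 for cohesin and 0.025 for the DREAM list with fatostatin, 0.054 for the DREAM list with betulin, and -0.300 and -0.110 for stromal markers with 25-HC and PF429424. The T cell median was 0.134 (library totals), 0.136 (prior count of 10) and 0.071 (FPKM) with fatostatin, and 0.249 (prior count of 0.5) and 0.243 (TMM factors over all genes) with betulin. Counts over all genes moved too, and the cause was not tested. Lower and higher calls were 65 and 38 (fatostatin) and 155 and 130 (betulin) at a CPM of at least 5, where 177 were higher with PF429424. They were 78 and 50 with fatostatin at a prior count of 10, and 166 were higher with fatostatin without a filter. On log2(FPKM + 1) they were 47 and 23 (fatostatin), 101 and 76 (betulin), 340 and 174 (25-HC) and 397 and 95 (PF429424), and 399 were higher with 1,10-Phen. With the median as reference they were 70 and 151 (fatostatin), 47 and 56 (betulin), 209 and 119 (25-HC) and 166 and 61 (PF429424). Of 230 single ratios, 206 moved beyond their counting interval with the median as reference, 32 on log2(FPKM + 1), 24 with library totals and 3 at a prior count of 10. No paired analysis was possible because each treatment has 1 library, which also leaves the spread between cultures unknown and leaving out a replicate impossible. Depth limits Pbk, Cenpm, Cenpp and Cenpf with 1,10-Phen, where 10 counts or fewer remained.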

Other observations

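The strand given in the deposited tables differs from that of the RefSeq promoter entry for 5 of the 40 members matched: Cenph, Ndc80, Aurka, Anln and Mki67. With 1,10-Phen their ratios were -2.69 for Cenph, -2.36 for Ndc80, -2.26 for Aurka, -4.02 for Anln and -6.79 for Mki67, within the range of the other members.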
